A study of Mus musculus with 2 samples.

Results

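The miR-34/miR-449 family was followed in 2 microRNA-seq libraries of mouse hippocampus. Its 6 genes are Mir34a, Mir34b, Mir34c, Mir449a, Mir449b and Mir449c, taken by gene name from the M21 annotation, out of 2202 miRNA genes in the count tables. The libraries were made from RNA of under 30 nt from adult female mice of the strain labelled 5xFAD/CAST, 8 to 10 months old, from tissue labelled as a layer of the hippocampus. The name 5xFAD denotes a mouse model of Alzheimer's disease whose transgenes are driven by the neuronal Thy1 promoter. CAST commonly denotes a wild-derived inbred strain of the subspecies Mus musculus castaneus. All samples form 1 group, of 2 biological replicates with a donor entry in common. The labels do not say whether each animal carried the transgenes or how many animals went into each library. With no second genotype, age, sex or tissue, the data give the level of each gene and the distance between the 2 libraries, and no contrast between conditions.

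A microRNA (miRNA) is cut from a hairpin precursor and guides the silencing of messenger RNAs, mainly through pairing of its seed, bases 2 to 8 from its 5′ end. Mir34a is a direct target of the tumour suppressor p53 and is expressed in many tissues, brain included. Mir34b and Mir34c come from 1 shared transcript, and the Mir449 genes lie in the cell-cycle-related gene Cdc20b. Both clusters are known for their high expression in multiciliated cells, where they repress the centriolar protein Cp110 and are needed for motile cilia. In the brain such cells line the ventricles as ependyma, and the choroid plexus epithelium also bears cilia. Mir34c has also been studied in the hippocampus as a brake on memory formation.

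The mature sequences are shown because the shared seed is what makes these genes a family. Of the 6 genes, 5 had a hairpin in the RefSeq table (build GRCm38.p6), 4 had a mature sequence of the 5′ arm (5p) and 5 had one of the 3′ arm (3p). Mir449b had no entry. The sequences run 5′ to 3′ with the seed in capitals.
mmu-miR-34a-5p: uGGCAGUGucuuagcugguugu
mmu-miR-34b-5p: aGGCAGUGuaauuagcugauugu
mmu-miR-449a-5p: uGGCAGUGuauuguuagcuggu
mmu-miR-449c-5p: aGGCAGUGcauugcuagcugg
For Mir34c, which carried the widest difference between the libraries, the RefSeq table had no mature 5p sequence. Its hairpin is therefore printed with the same letters in capitals.
Mir34c hairpin: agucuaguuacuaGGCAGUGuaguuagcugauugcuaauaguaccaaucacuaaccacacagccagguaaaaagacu
The letters GGCAGUG stood at bases 2 to 8 of 4 of the 1738 mature sequences in the table, all 4 of them printed here. The same letters, on the transcribed strand, occurred anywhere in 17 of 1005 hairpins, or 1.69%, once each in the 5 family hairpins. Their position in the Mir34c hairpin starts at base 14.

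Outside the seed the 5p sequences split into pairs. The 23 bases of miR-34b-5p and the stretch of the Mir34c hairpin that starts 1 base before the capitals differed at 2 positions, A11G and U23C, counted from the 5′ end of miR-34b-5p with its base first. miR-449c-5p and the same stretch of the Mir449a hairpin differed at 3 of 21 positions. miR-34a-5p, compared without gaps, differed from the Mir449a stretch at 7 of 22 positions and from the Mir34b and Mir34c stretches at 11 each. Past base 9, however, the letters of miR-34a-5p and miR-34b-5p run 1 base out of step. The ungapped counts therefore do not show which of these miR-34a-5p is closest to. The 3p arms do not carry the family seed, and Mir34b and Mir34c share another one there.
mmu-miR-34b-3p: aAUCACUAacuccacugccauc
mmu-miR-34c-3p: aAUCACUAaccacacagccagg
These were the only 2 of the 1738 mature sequences with AUCACUA at bases 2 to 8, and they differed from each other at 5 of 22 bases. The counts are per gene and add both arms, so the arms were not told apart. Of the mature sequences of family genes in the table, which lack miR-34c-5p, none matched another hairpin of the table in full. The closest was miR-34b-5p, 2 mismatches from Mir34c, so a Mir34b or Mir34c read with errors can resemble the other gene. How reads with errors were assigned was not given in the labels or notes used here.

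The genes lie at 3 places in mm10. Mir34a (ENSMUSG00000065493.1) is on chromosome 4 from 150068454 to 150068555, plus strand, and its last 17 bases overlap an exon of the unclassified transcript gene Gm37795 on the same strand. Mir34c (ENSMUSG00000065587.1), from 51103034 to 51103110, and Mir34b (ENSMUSG00000065492.1), from 51103562 to 51103645, are on the minus strand of chromosome 9 with 451 bases between them. Both are inside an intron of Btg4, a protein-coding gene on the opposite strand. Mir449c (ENSMUSG00000076146.1), from 113035983 to 113036091, Mir449b (ENSMUSG00000078027.1), from 113037419 to 113037498, and Mir449a (ENSMUSG00000065575.1), from 113037534 to 113037624, are on the plus strand of chromosome 13 in an intron of Cdc20b. Between Mir449b and Mir449a there are 35 bases.

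Depth was 3135960 miRNA counts on the sense strand in replicate 1 and 4377622 in replicate 2, of 9962659 and 12761689 reads. Reads that mapped to several places, 36.3% and 41.7% of the reads, stood outside the gene counts. Levels are counts scaled to 1000000 miRNA counts per library (CPM), and a mean is followed by the SD of the 2 libraries (n = 2). The upper limit of a gene with no count, taken as 3 counts, was 0.957 CPM for replicate 1 and 0.685 CPM for replicate 2. Single-library intervals are exact 95% binomial (Clopper-Pearson) intervals. Neither these intervals nor the limits hold more than counting error, because reads copied by PCR are not independent molecules. Of 12 neuronal marker genes, the 4 highest, Mir132, Mir128-1, Mir137 and Mir138-1, were between 2170 and 17397 CPM on average. Mir9-1, Mir9-2 and Mir9-3, copies of a brain-enriched miRNA, were at 26.4, 2.05 and 56.2 CPM, and the 3 Mir124a genes, copies of a neuron-specific miRNA, had 8 counts or fewer in each library. Reads that fit several copies stand outside these counts, so the values do not measure the level of either miRNA.

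The family supplied 0.223% ± 0.137 (SD, n = 2) of all miRNA counts, with most of its counts from Mir34a and Mir34c. Its share was 0.319% in replicate 1 (interval 0.313% to 0.326%) and 0.126% in replicate 2 (0.123% to 0.129%). Of the 6 genes, 4 had at least 10 counts in each library, and across all 2202 miRNA genes 17.4% did. Mir449b and Mir449c were at or below the floor.

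Mir34a, the p53 target, had 4233 counts in replicate 1 and 3980 in replicate 2. Its level was 1349.8 CPM (interval 1309 to 1391) and 909 CPM (881 to 938), or 1129 ± 312 CPM. It was the highest member in replicate 2 and the next highest in replicate 1. By mean level it ranked 89 of the 2202 genes. The 3 genes ranked next above were Mir370, Mir181d and Mir15a, from 1184 to 1135 CPM, and the next below were Mir154, Mir129-2 and Mir34c, from 1114 to 1019.5 CPM. Mir34a differed from each of these 6 by less than its own SD.

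Mir34c, the dominant product of the chromosome 9 cluster, had 5478 counts in replicate 1 and 1279 in replicate 2. This was 1747 CPM (interval 1701 to 1794) against 292 CPM (276 to 309), or 1019.5 ± 1029 CPM, an SD as large as the mean. It ranked 67 of the 2202 genes in replicate 1 and 148 in replicate 2, where Mir34a ranked 82 and 96. The mean of Mir34c therefore describes neither library.

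Mir34b, its cluster partner, had 136 and 73 counts. These were 43.4 CPM (interval 36.4 to 51.3) and 16.7 CPM (13.1 to 21), or 30.0 ± 18.9 CPM. For each Mir34b count there were 40.3 counts of Mir34c in replicate 1 and 17.5 in replicate 2. Mir34b made up 2.42% of the cluster's counts in replicate 1 (interval 2.04% to 2.86%) and 5.4% in replicate 2 (4.26% to 6.74%), so the split between the 2 neighbours differed between libraries by more than counting error. No replicate of the split within a library exists.

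Mir449a carried the chromosome 13 cluster. It had 172 and 184 counts, at 54.8 CPM (interval 47.0 to 63.7) and 42.0 CPM (36.2 to 48.6), or 48.4 ± 9.06 CPM. Mir449c had 0 and 1 counts, and Mir449b had 0 in both libraries. Of the genes that mark multiciliated cells, the 3 of this cluster were thus represented by Mir449a alone. Of the 5 listed markers of such cells, 3 were detected, Mir34c, Mir34b and Mir449a. All 5 are genes of the family, so these counts do not test its label as one of ciliated cells. Mir34a, which is not restricted to such cells, supplied 42.2% and 72.1% of the family's counts.

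**Figure D1:**
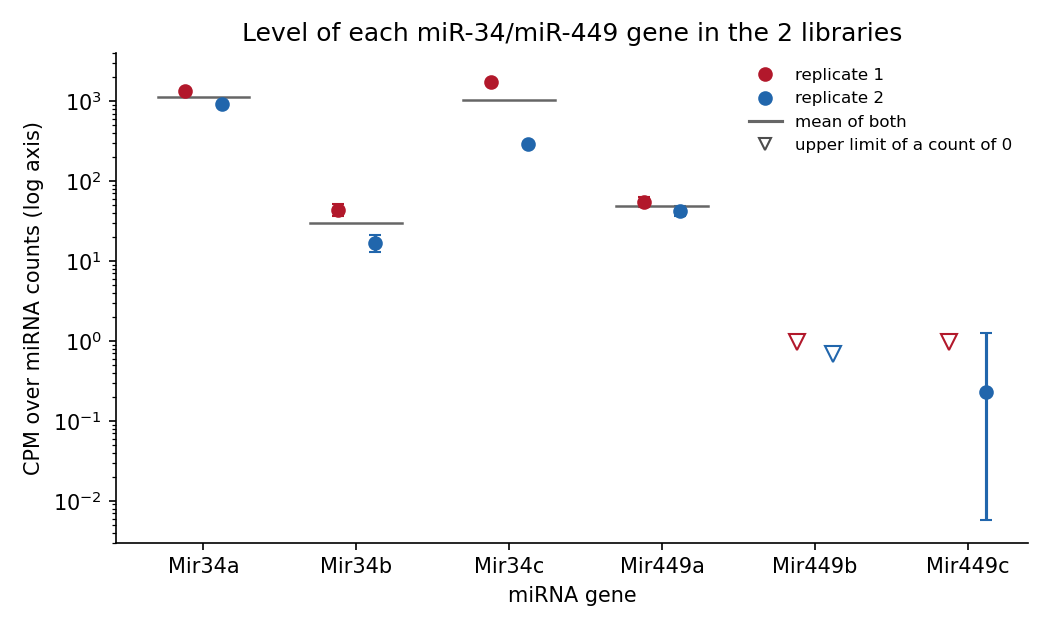
CPM over miRNA counts (log axis) of each gene in replicate 1 (red) and replicate 2 (blue), with exact 95% binomial intervals of each library (too narrow to see for Mir34a and Mir34c) and the mean of both as a grey line for the 4 genes with at least 10 counts in each library. Open triangles mark the upper limit of a count of 0. Mir34c spans 292 to 1747 CPM, while Mir449a spans 42.0 to 54.8 CPM.

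By mean level the order was Mir34a, Mir34c, Mir449a, Mir34b, Mir449c and Mir449b. Neighbours overlapped in 2 cases, Mir34a with Mir34c and Mir449a with Mir34b. The 2 values of Mir34a, 1349.8 and 909 CPM, fell between those of Mir34c. The lower value of Mir449a, 42.0 CPM, fell between the 2 values of Mir34b, 43.4 and 16.7 CPM. Both values of Mir34a and Mir34c were above both values of Mir449a and Mir34b, and both of these were above Mir449c and Mir449b. A counted read stands for a whole small RNA or a PCR copy of one, so CPM was not divided by length. Per kb of hairpin, the mean level of Mir34c was 13240.3 ± 13358 CPM per kb and that of Mir34a 11074 ± 3055 CPM per kb, so these 2 changed places. Mir449a and Mir34b were at 532 ± 99.6 and 357 ± 225 CPM per kb.

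The make-up of the family differed between the libraries. In replicate 1 Mir34c supplied 54.7% of the family's counts (interval 53.7% to 55.7%), and in replicate 2 it supplied 23.2% (22.1% to 24.3%). Mir449a supplied 1.72% (1.47% to 1.99%) and 3.34% (2.88% to 3.84%). Mir34b supplied 1.36% and 1.32%, within counting error of each other. Without Mir34c the other 5 genes held 0.145% of the miRNA counts in replicate 1 and 0.0968% in replicate 2, or 0.121% ± 0.0339 (SD, n = 2).

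**Figure D2:**
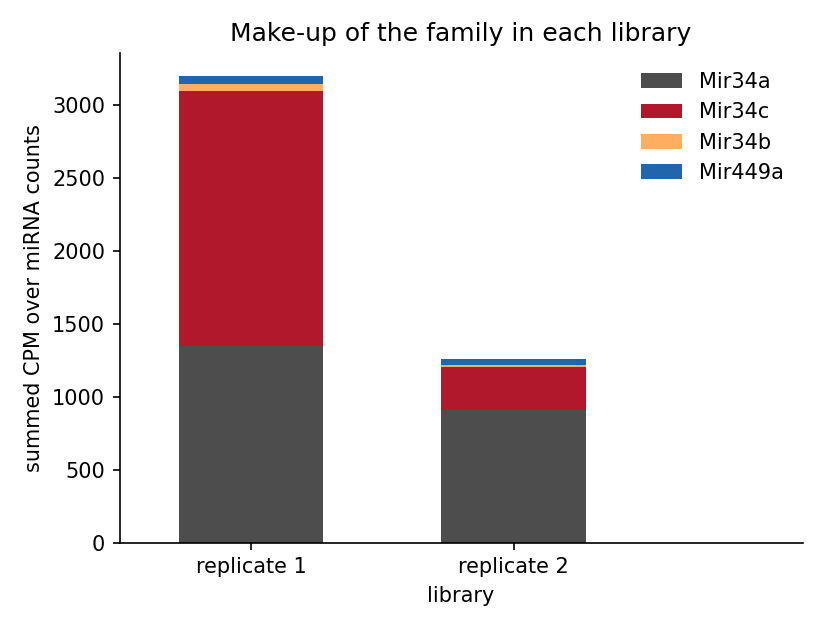
Summed CPM of the family in each library, stacked by gene. The Mir34c segment is 1747 CPM high in replicate 1 and 292 CPM in replicate 2, and the Mir34a segment is 1349.8 and 909 CPM; Mir449b and Mir449c are too low to draw.

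The distance between the libraries was then set against that of other miRNA genes. Each ratio divides replicate 1 by replicate 2 once the libraries were scaled by TMM, with 0.5 CPM added to both on the log2 scale, for the 459 genes with at least 10 counts in either library, which included 4 of the 6 family genes. Linear ratios and their intervals are from the counts without that addition. They compare 2 libraries, not conditions. Mir34c was 6.28 times as high in replicate 1 (interval 5.90 to 6.68), a log2 ratio of 2.65. Mir34b was 2.73 times as high (2.04 to 3.68), a log2 ratio of 1.42. Mir34a was 1.56 times as high (1.49 to 1.63), a log2 ratio of 0.64, and Mir449a 1.37 times (1.11 to 1.70), a log2 ratio of 0.45. All 4 were thus higher in replicate 1, and the interval of Mir34c did not overlap those of the other 3.

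Across the 459 genes the median log2 ratio was -0.03, with quartiles at -0.43 and 0.38, and the median of the 4 family genes was 1.03. Of these 4 genes, 1 lay past 4-fold higher in replicate 1, Mir34c, as did 2.40% of the 459. Past 2-fold higher were 2, Mir34c and Mir34b, against 8.50% of the 459. None of the 4 lay past 2-fold lower in replicate 1, as did 10.7% of the 459. Only 3 of the 459 genes had a higher ratio than Mir34c, while 23 had a higher one than Mir34b, 63 than Mir34a and 98 than Mir449a. Counted in either direction, 8 genes had a wider ratio than Mir34c, 51 than Mir34b, 154 than Mir34a and 209 than Mir449a. The coefficient of variation between the 2 libraries was 1.01 for Mir34c, 0.629 for Mir34b, 0.276 for Mir34a and 0.187 for Mir449a. Over the 459 genes edgeR's common biological coefficient of variation was 0.389. That estimate follows TMM scaling and leaves out counting error, while the values of the 4 genes come from CPM and include it. With this difference in measure, Mir34c and Mir34b lay above it and Mir34a and Mir449a below it. Each gene's own value comes from 2 numbers and is imprecise.

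**Figure D3:**
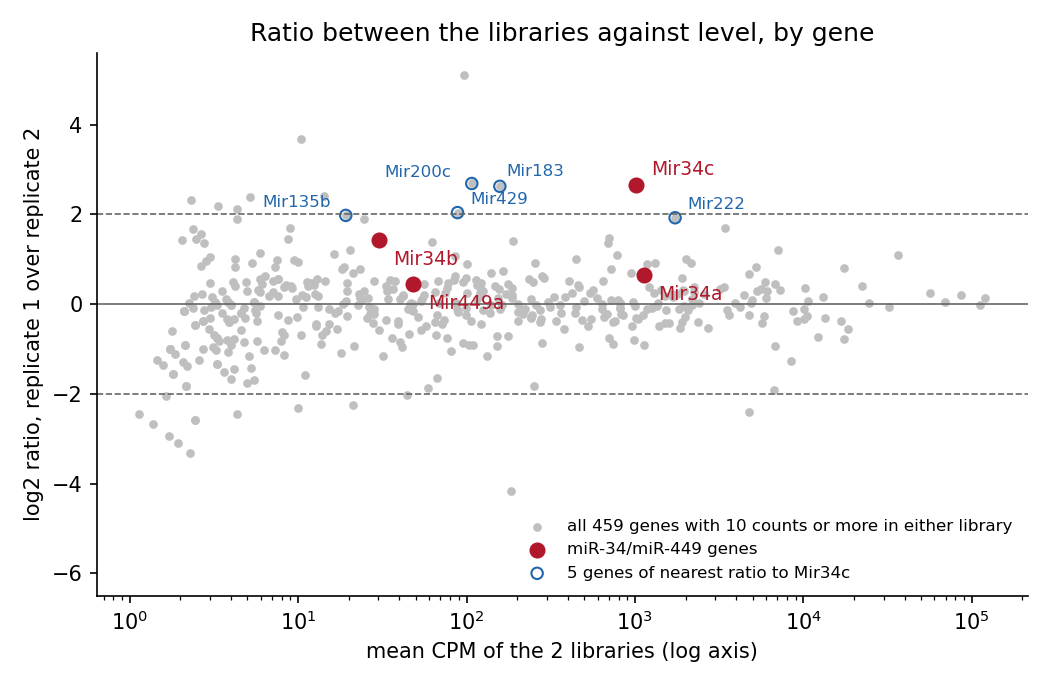
Log2 ratio of replicate 1 over replicate 2 (y axis) against mean CPM (x axis, log) for 459 miRNA genes in grey, the 4 measurable family genes in red and the 5 genes of nearest ratio to Mir34c as blue rings; dashed lines mark 4-fold. Mir34c lies at 2.65, above the upper dashed line, and Mir34a and Mir449a lie at 0.64 and 0.45, within the grey band.

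The genes with a ratio nearest to that of Mir34c were sought among 301 genes with at least 100 counts over both libraries. The measure was the distance on the log2 scale, over 2 libraries only. Mir183, of the sensory cluster with Mir96 and Mir182, was nearest, at 270.1 and 45.5 CPM in replicates 1 and 2, a log2 ratio of 2.63. Mir200c, of the epithelial miR-200 family that restrains the transcription factors Zeb1 and Zeb2, was at 185 and 29.7 CPM, a log2 ratio of 2.69. Mir429 of the same family was at 141 and 35.6 CPM (log2 ratio 2.04). Mir135b was at 30.6 and 7.77 CPM (1.98) and Mir222, a repressor of the Kit receptor, at 2716 and 749 CPM (1.93). The choice by ratio fixes that all 5 were higher in replicate 1. Of the 5, Mir183, Mir200c and Mir429 are on the epithelial list, which had 6 genes among the 301 considered.

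Markers of other cell types are given beside this difference. On the epithelial list, 9 of 10 genes had at least 10 counts in either library, and 7 of these 9 lay past 2-fold and 6 past 4-fold higher in replicate 1, against 8.50% and 2.40% of all genes. The list was chosen with earlier results of these data known. Its genes are not independent either. For example, Mir183, Mir96 and Mir182, at log2 ratios of 2.63, 2.12 and 1.39, belong to the same cluster. Whether the miR-200 family genes of the list share transcripts was not examined. The number of separate loci behind the counts past 2-fold and 4-fold was therefore not established. Its summed level was 930.5 CPM in replicate 1 and 276 CPM in replicate 2, and its median log2 ratio was 2.12. Mir141 had the widest ratio of the list, with 62 and 5 counts, and Mir205 was left out of the ratios with 4 and 8. Mir200b, at 63.1 and 48.2 CPM (log2 ratio 0.46), differed about as little as Mir449a. No gene of the list was at 0 in both libraries.

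The choroid plexus and ependyma list moved less. Of its 7 genes, 6 had at least 10 counts in either library. None of these 6 lay past 2-fold higher or past 2-fold lower in replicate 1, against 8.50% and 10.7% of the 459 genes. With 6 genes, having none past 2-fold is near those shares. The summed level was 1621 CPM in replicate 1 and 1046 CPM in replicate 2, with a median log2 ratio of 0.59 and a range of 0.15 to 0.93. Mir204, in an intron of the channel gene Trpm3, was at 1148 and 744 CPM (0.70), and Mir1298 at 328 and 181 CPM (0.93). Mir1912 had 0 and 1 counts. The ratios of Mir34c and Mir34b, 2.65 and 1.42, lay above those of all 6 genes, and the ratios of Mir34a and Mir449a lay within their range. The part of either cell type in the Mir34c difference was not tested. In bulk tissue, fewer cells of a type and less RNA per cell cannot be told apart.

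In the other lists the summed levels differed less between the libraries than Mir34c did. The neuronal list summed to 36033 and 34370.3 CPM in replicates 1 and 2, with a median log2 ratio of -0.03 over 9 genes. Reads that fit several copies of the Mir9 or Mir124a genes are not in this sum. Within it Mir132 was at 21687 and 13106 CPM (0.80) and Mir128-1 at 4545 and 9069 CPM (-0.93), so its near-equal sum joins genes that differed in opposite directions. The oligodendrocyte list summed to 6799 and 6685 CPM. The microglia and myeloid list summed to 460.5 and 479 CPM, the smooth muscle and pericyte list to 8170.4 and 6864 CPM and the red blood cell list to 70.2 and 78.4 CPM. The endothelial Mir126a went the other way, at 12521 and 22475 CPM. Among single genes of these lists, Mir9-2 (10 and 4 counts) lay past 2-fold higher in replicate 1, as did 8.50% of the 459 genes. Mir144 (9 and 75 counts) lay past 4-fold lower, as did 3.05% of the 459.

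Other miRNAs described as p53-regulated lay on both sides of an equal level in the libraries. Of 10 listed genes, 9 matched a symbol and 7 had at least 10 counts in either library. None of these 7 lay past 2-fold higher in replicate 1, against 8.50% of the 459 genes. Past 2-fold lower was 1, Mir194-2, at 10.8 and 24.9 CPM, against 10.7% of the 459. With 7 genes, both counts are near those shares. The median log2 ratio was -0.06. Mir107, in an intron of the pantothenate kinase gene Pank1, had the highest ratio of the list (0.92) at 2775 and 1535 CPM, and Mir15a, a repressor of cell-cycle genes, was at 761 and 1509 CPM (-0.92). Mir215 and Mir194-1 had 0 counts in both libraries. Mir34a, at 0.64, was within the range of the list, from -1.10 to 0.92.

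**Figure D4:**
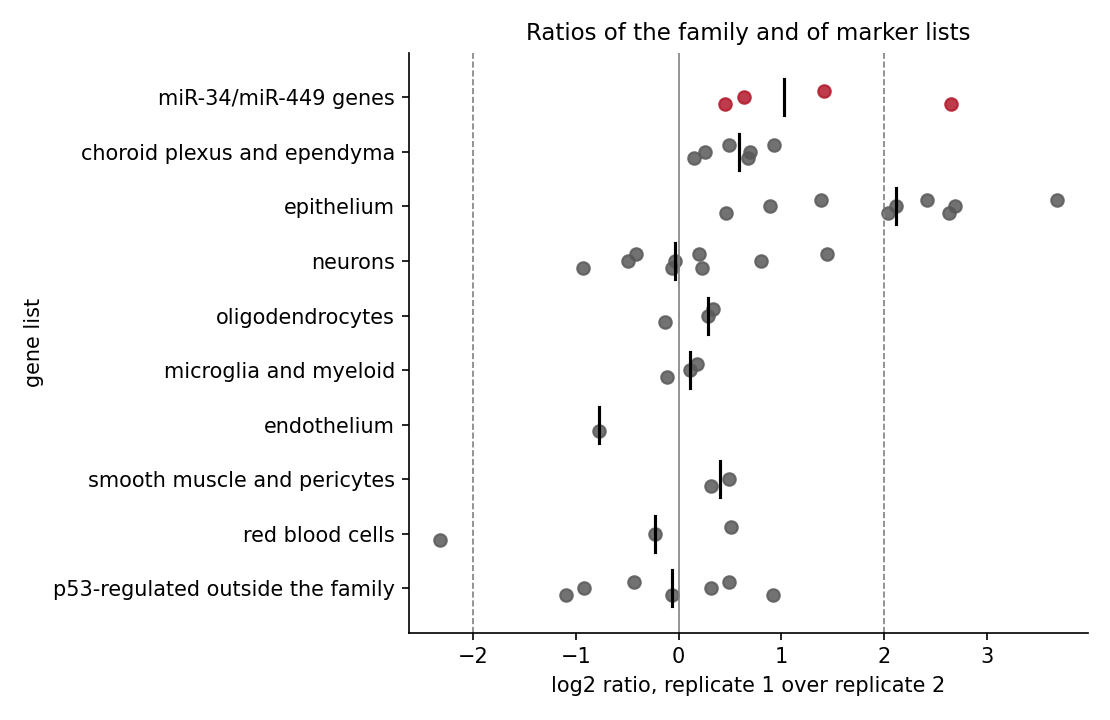
Log2 ratio of replicate 1 over replicate 2 for each gene with at least 10 counts in either library, by list; black bars are medians, dashed lines mark 4-fold, and the family genes are red. The epithelial list, with a median of 2.12, is the one list centred past 4-fold, and the choroid plexus and ependyma list has a median of 0.59; the list of multiciliated markers, whose genes are all in the family, is not drawn apart.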

How the data were processed

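For each library the authors deposited a table of raw read counts over 2202 miRNA genes, mapped to mm10 with the M21 annotation per the notes deposited with the tables. The aligner, the counter and any trimming were not given in the labels or notes used here. Library sizes leave out the 4 summary lines: unmapped reads were 26.5% and 18.1% of the reads in replicates 1 and 2, multimapping reads 36.3% and 41.7%, and unassigned reads 5.72% and 5.91%. Of the 3 count columns, read as unstranded and 1 per strand, the strand column with the larger total was used as sense (93.4% and 91.9% of both). Variants of the CAST genome against mm10 could alter mapping, which was not tested.

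CPM was computed over sense miRNA counts. TMM factors (0.976 and 1.02) and the common dispersion with an intercept alone came from edgeR 4.0.16 in R 4.3.3, over the 459 genes with at least 10 counts in either library. Ratio intervals are exact binomial. Named genes were all 6 members, the 5 of nearest ratio to Mir34c, the 3 on each side of Mir34a in level, and the listed markers. Members and lists were chosen with earlier results of these data known, so no test is given. The ratio computation was checked on simulated counts with known fold changes. Alternatives used DESeq2 1.42.0 size factors, other totals, filters, pseudocounts and strand columns, and each replicate left out. Other tools were Python 3.11.15, scipy 1.17.1 and pandas 2.3.3.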

Additional observations from a re-analysis of the deposited data

Results flagged for a closer look

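On the strand opposite to its annotated one, Mir34b had 6 counts in replicate 1 and 6 in replicate 2, above the 3 counts that a count of 0 allows. These were 4.23% and 7.59% of its counts on both strands and entered no level given here. Over all miRNA genes the opposite strand held 6.6% and 8.05% of such counts, but this share is not a like background for Mir34b. The unstranded totals, 2914593 and 3994545, were below the sense totals. The library share thus includes reads that entered both strand columns and were left out of the unstranded one. For Mir34b the unstranded counts, 142 and 79, held those of both strands, so its share cannot be called low or high against the library. The other 5 genes of the family had 0 counts on the opposite strand in both libraries. Btg4 is annotated on that strand across the site.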

How the results depend on the processing

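Of 45 alternative values that kept both libraries, 33 stayed within the spread between replicates, the counting interval or 1.5 times the count, and 12 moved beyond it. A change of direction could be recorded only for the ratios of the 4 measurable genes, and 0 of those changed direction. For levels and the family share the spread was the SD of 2 libraries, a wide limit where the libraries differ. Scaled to total reads in place of miRNA counts, mean levels were 368 for Mir34a, 325 for Mir34c, 9.69 for Mir34b and 15.8 for Mir449a. The family's share of total reads was 0.0719%. These values are lower because the total is larger by construction. The Mir34c value stayed within its spread only because its SD, 1029 CPM, is as large as its mean. On that scale the log2 ratio of Mir34c was 2.45 and that of Mir34a 0.45, and the median over all 459 genes was -0.21 against -0.03 with TMM. Scaled by miRNA totals alone, the ratio of Mir34a was 0.57. Genes past 4-fold higher in replicate 1 numbered 11, and 17, 5 and 5 with a minimum of 1 count, a minimum of 100 counts and a pseudocount of 5 CPM. Past 4-fold lower there were 14, and 4 and 2 with the last 2 settings. Mir34c lay past 4-fold under each scaling, pseudocount and strand column run, its log2 ratio ranging from 2.45 to 2.65. Leaving out 1 replicate gave a family share of 0.126% (replicate 2 alone) or 0.319% (replicate 1 alone), and 292 or 1747 CPM for Mir34c, so no single level of Mir34c holds for both libraries. The share without Mir34c, 0.121%, was an alternative chosen after seeing the data. No paired analysis was possible because there is 1 group. The counts limit statements on Mir449b and Mir449c to an upper bound near 1 CPM.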
